A study of Mus musculus with 19 samples.

Results

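Hematopoietic stem cells (HSC) of the fetal liver were set against HSC of the adult bone marrow across all genes, in 5 of the 11 RNA-seq libraries of the study and in the 2 lists of open chromatin regions made from HSC. These libraries and lists stand for 9 of the 19 samples of the study and were taken by their labels. They are 2 RNA-seq and 2 ATAC-seq samples of fetal HSC, and 3 RNA-seq and 2 ATAC-seq samples of adult HSC. Fetal HSC came from livers of E14.5 embryos of C57BL/6 mice, and adult HSC came from the marrow of C57BL/6 mice aged 12 weeks. The labels name no mutation and no treatment in either group. Both kinds of HSC were sorted as live cells positive for CD150, c-Kit and Sca-1 and negative for Flt3, CD48, B220, CD3, Ter119 and Gr1. The adult gate also left out cells with CD11b, which the labels do not list for the fetal gate. Lymphoid-primed multipotent progenitors (LMPP), which lack CD150 and carry CD48 and Flt3, were sorted from the livers and marrow of the same ages, and their 6 RNA-seq libraries give the same comparison of ages in another cell type. Nothing in the labels tells whether each replicate is its own animal or a pool, and the p-values therefore rest on a spread between samples that may be technical. In bulk RNA, fewer cells of a type and less RNA per cell cannot be told apart.

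HSC renew themselves and give rise to all blood lineages. In the fetal liver they expand quickly among hepatocytes, macrophages and a large erythroid compartment, and in adult marrow most of them rest near stromal cells, vessels and megakaryocytes. The step between these states changes how the cells divide, which lineages they favour and how they respond to interferons, prostaglandins and other signals of their surroundings.

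The fetal HSC libraries held 23.71 and 37.52 M counts, and the adult ones 28.82, 27.44 and 61.67 M. Levels are given as CPM, the share of a gene in the scaled counts of its library, and are not divided by gene length, so they are compared between libraries and not between genes. Across genes, log2 CPM correlated at 0.977 (Pearson) between the fetal libraries, at 0.934 to 0.976 among the adult ones and at 0.883 to 0.926 between the ages. Adult HSC 3 stood apart: in 2674 of 14720 tested genes (18.2%) it lay at least 2-fold from the mean of the other adult libraries while those agreed within that fold, against 363 genes for adult HSC 1 and 323 for adult HSC 2. Gene counts are also shown after dropping the 3 of the 11 libraries that stood apart, which are adult HSC 3, fetal LMPP 1 and adult LMPP 3. They were picked because they stood apart in these same data. Calls gained or kept without them are therefore no independent support.

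Fetal HSC held at least 2-fold more RNA of 251 genes and at least 2-fold less of 365 genes. In all, 304 genes were higher in fetal HSC (2.07% of the 14720 tested) and 425 were lower (2.89%), by edgeR's quasi-likelihood test at an adjusted p under 0.05. The median log2 difference was 2.07 among the higher genes and −2.05 among the lower ones, and 0.0 over all tested genes. Protein-coding genes made up 287 of the higher and 406 of the lower genes, and noncoding RNAs 13 and 15. The fetal and adult libraries did not overlap in any called gene, and they did not overlap in 41% of all tested genes. Without the 3 libraries that stood apart, 1096 genes were higher (7.59%) and 1241 lower (8.59%), 16.2% in either direction, among them 302 of the 304 and 424 of the 425. The fit without fetal HSC 1 called 137 genes higher and 132 lower, and the fit without fetal HSC 2 called 104 and 109, with the single fetal library assumed to vary like the other groups.

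**Figure D1:**
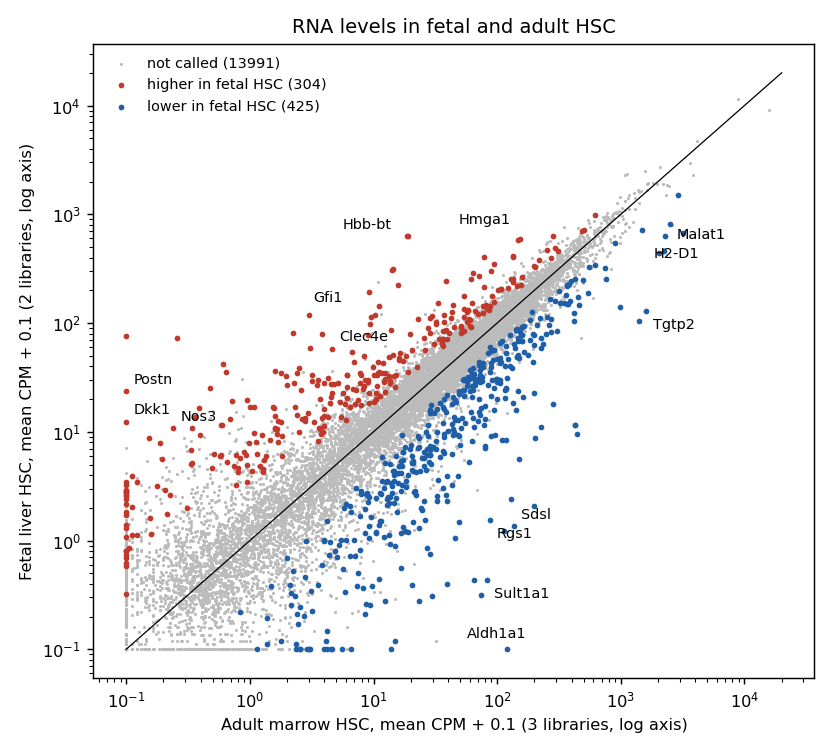
Mean RNA level of each tested gene in fetal HSC (vertical axis, 2 libraries) and adult HSC (horizontal axis, 3 libraries), in CPM + 0.1 on log axes, with the line of equal levels. Red points are the 304 genes called higher in fetal HSC and blue points the 425 called lower, and Dkk1 and Postn sit at the left edge because every adult HSC library has 0 counts.

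The genes that differed most included several that were silent in HSC of one age. Dkk1, a secreted inhibitor of Wnt signalling (chromosome 19, 30545885 to 30549496), stood at 12.0 and 12.6 CPM in fetal HSC 1 and 2, against 0 in each adult library. It was at least 152-fold higher in fetal HSC at a floor of 3 counts per library (adjusted p = 0.000531). Postn, the matrix protein periostin (chromosome 3, 54359267 to 54391041), stood at 19.3 and 27.7 CPM in fetal HSC, against 0 in each adult HSC library, and was at least 291-fold higher (adjusted p = 2.67e-05). Both fetal libraries carried both RNAs, and no adult HSC library had a count of either. Nos3, the endothelial nitric oxide synthase, had 8.97 and 12.3 CPM in fetal HSC, against 0.0634, 0.26 and 0.0997 CPM in adult HSC (log2 difference 6.23 ± 0.74 SE, adjusted p = 0.000893). Id3, which blocks DNA binding by helix-loop-helix factors, averaged 42 ± 3.91 CPM in fetal HSC and 0.512 ± 0.191 CPM in adult HSC (SD, n = 2 and 3). No adult library came near a fetal one in any of these genes. The other genes of the largest rises were Igf2bp1, H19, Lin28b, Igf2, Sytl2, Cd300lf and Crispld2, with log2 differences from 5.83 (Crispld2) to 14.36 (Igf2bp1, fitted against 0). For Sytl2 (adjusted p = 0.0974) and Cd300lf (0.0785), the calls did not hold without fetal HSC 1. The calls of Sytl2 (0.137) and Cd300lf (0.0977) ended without fetal HSC 2. The call of Sytl2 (0.0724) ended without adult HSC 1. For Cd300lf (0.062), the call did not hold without adult HSC 2. The call of Sytl2 (0.0611) ended without adult HSC 3. With only the HSC libraries in the fit the call of Crispld2 ended (0.0583).

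Among the falls, Aldh1a1, an enzyme that makes retinoic acid and clears aldehydes (chromosome 19, 20492583 to 20643463), had 0 counts in both fetal libraries, against 97.3, 132 and 131 CPM in adult HSC. Adult HSC therefore held the RNA at least 1255-fold above the fetal floor (adjusted p = 0.00322). Sult1a1, a phenol sulfotransferase, had 0.236 and 0.439 CPM in fetal HSC, against 50.7, 87.2 and 109 CPM in adult HSC (log2 difference −7.87 ± 0.95, adjusted p = 0.00097). Sdsl, an enzyme of the serine dehydratase family, had 0.983 and 1.51 CPM in fetal HSC, against 119, 101 and 189 CPM in adult HSC (log2 difference −6.75 ± 0.43, adjusted p = 0.00012). All 3 adult libraries were high and both fetal libraries near or at 0 for each of these genes. Galnt6, which starts O-linked glycans, was picked after its values were seen and had 1.85 and 2.73 CPM in fetal HSC, against 154, 156 and 80.1 CPM in adult HSC (log2 difference −5.81 ± 0.52, adjusted p = 0.000191). Dnajc6 and Matn4 also had 0 counts in fetal HSC and averaged 6.49 ± 3.64 and 5.49 ± 1.53 CPM in adult HSC. The calls of Dnajc6 (adjusted p = 0.155) and Matn4 (0.0561) ended without fetal HSC 1. The calls of Dnajc6 (0.204) and Matn4 (0.0762) ended without fetal HSC 2. For Dnajc6 (0.0552), the call did not hold without adult HSC 1. The calls of Dnajc6 (0.0565) and Matn4 (0.0542) ended without adult HSC 2.

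**Figure D2:**
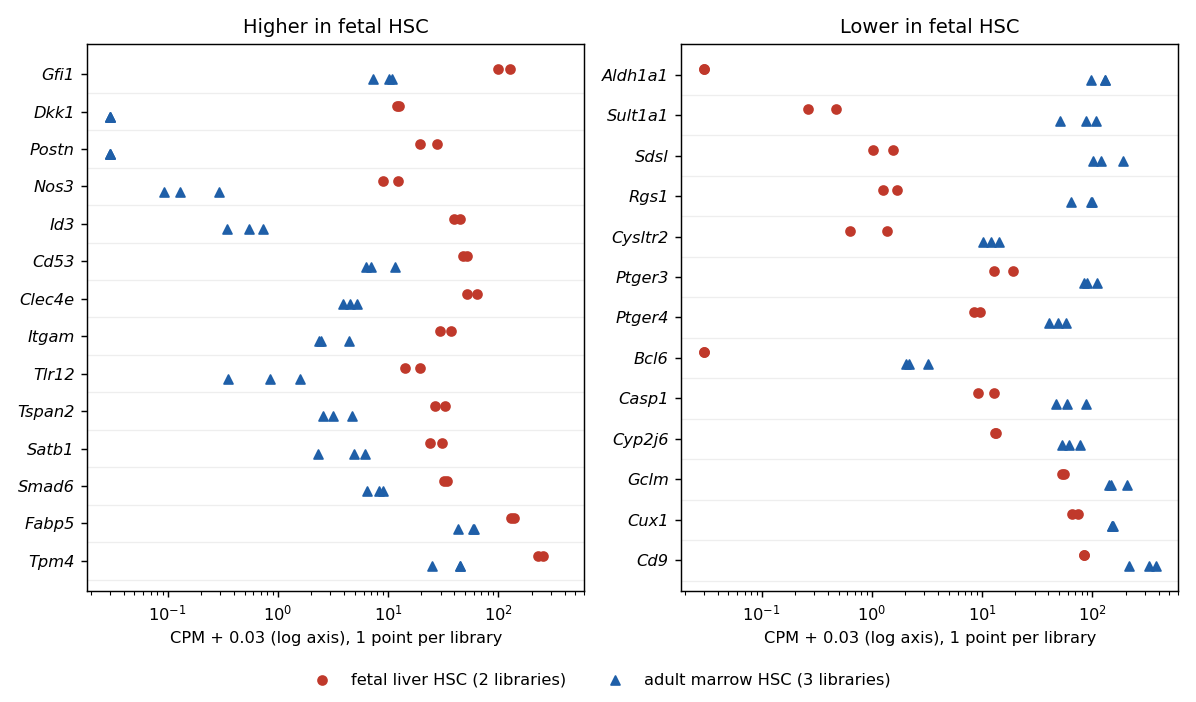
RNA level of 27 genes in each HSC library, in CPM + 0.03 on a log axis, with 1 point per library (red circles, 2 fetal libraries; blue triangles, 3 adult libraries). The fetal points lie right of all adult points for each gene on the left and left of them for each gene on the right, and points at the left edge are libraries with 0 counts.

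Hmga1, Coro1a, Malat1, Serinc3 and B2m were among the most abundant RNAs that differed. Hmga1, a chromatin protein that bends DNA, had 619 and 568 CPM in fetal HSC, against 167, 152 and 139.9 CPM in adult HSC (log2 difference 1.96 ± 0.14, adjusted p = 5.07e-05). Hmga1b is listed at nearly the same values and within the same stretch of chromosome 17 (27556653 to 27563671, Hmga1 27556604 to 27563672). These entries are therefore not separate results. Coro1a, an actin regulator of leukocytes, had 957 and 1019 CPM in fetal HSC, against 556, 585 and 721 CPM in adult HSC (log2 difference 0.67 ± 0.15, adjusted p = 0.0266). Fkbp1a, Gapdh and H2afy, which encode a prolyl isomerase, a glycolytic enzyme and a histone variant, had log2 differences of 1.17, 0.53 and 0.51. Among the lower genes, the noncoding RNA Malat1 had 682 and 936 CPM in fetal HSC, against 2078, 1996 and 3390.3 CPM in adult HSC (log2 difference −1.62 ± 0.34, adjusted p = 0.0219). Serinc3, a membrane protein, had 1483 and 1512 CPM in fetal HSC, against 2662, 2869 and 3209.7 CPM in adult HSC (log2 difference −0.96 ± 0.15, adjusted p = 0.00432). B2m, the light chain of MHC class I, was at 606 and 656 CPM in fetal HSC, against 1899, 2332 and 2569.7 CPM in adult HSC (log2 difference −1.85 ± 0.20, adjusted p = 0.000503). Myc, a growth-promoting transcription factor picked after its values were seen, was lower in fetal HSC, at 154 and 139 CPM, against 472, 373 and 522 CPM in adult HSC (log2 difference −1.64 ± 0.17, adjusted p = 0.00045). The calls of Coro1a (adjusted p = 0.134), Fkbp1a (0.0561), Gapdh (0.0989), H2afy (0.248), Malat1 (0.238) and Serinc3 (0.0592) ended without fetal HSC 1. For Coro1a (0.223), Fkbp1a (0.0863), Gapdh (0.307), H2afy (0.279), Malat1 (0.112) and Serinc3 (0.0628), the calls did not hold without fetal HSC 2. The calls of Coro1a (0.0857), Gapdh (0.074) and H2afy (0.141) ended without adult HSC 1. The calls of Coro1a (0.0797), Gapdh (0.0539) and H2afy (0.121) ended without adult HSC 2. With only the HSC libraries in the fit the calls of Coro1a (0.103), Gapdh (0.149) and H2afy (0.191) ended. The call of H2afy also ended with RLE scaling (0.0632), without the filter on low counts (0.0613) and with a replicate block (0.0904).

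The genes of the sort gate were read as a check of the labels. Slamf1, which encodes CD150, stood at 56.8 and 52.7 CPM in fetal HSC, against 69.7, 74 and 69 CPM in adult HSC (adjusted p = 0.889). In LMPP, which were sorted as lacking CD150, it stood at 0.722 CPM or less in the fetal and 0.953 CPM or less in the adult libraries. Kit was at 738 and 809 CPM in fetal HSC, against 1138, 1143 and 195 CPM in adult HSC, where adult HSC 3 was the low one (adjusted p = 0.968). Without the 3 libraries that stood apart Kit was lower in fetal HSC (log2 difference −0.57, adjusted p = 0.00379). Itgam, which encodes CD11b, was higher in fetal HSC, with 29.7 and 37.1 CPM against 4.41, 2.44 and 2.31 CPM in adult HSC (log2 difference 3.45 ± 0.42, adjusted p = 0.000957). The part of the different gates in this result cannot be told apart from age. Cd48, absent from the surface by both gates, was at 22.6 and 11 CPM in fetal HSC, against 4.76, 3.35 and 9.83 CPM in adult HSC, and did not pass (adjusted p = 0.0745), although it passed without the 3 libraries that stood apart (0.0032). Flt3, which the gates also exclude and LMPP carry, was higher in fetal HSC, with 28.2 and 29.8 CPM, against 14.3, 16.4 and 9.4 CPM in adult HSC (log2 difference 1.12 ± 0.20, adjusted p = 0.00893). Every HSC library lay far below LMPP, where Flt3 had 469 to 512 CPM in fetal and 908 to 1064 CPM in adult libraries. The call of Flt3 ended without fetal HSC 1 (0.0625), without fetal HSC 2 (0.0952) and with only the HSC libraries in the fit (0.113). Mecom, a transcription factor of HSC, had 218 and 256 CPM in fetal HSC, against 135, 170.5 and 50.7 CPM in adult HSC, and did not pass (adjusted p = 0.318). Procr and Hlf, further HSC genes, overlapped between the ages (adjusted p = 0.696 and 0.837).

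Markers of other cell types were summed per library to see what else the sorted cells may have held. Erythroblast markers summed to 910.2 and 1033 CPM in fetal HSC, against 29.3, 42.2 and 88.4 CPM in adult HSC, and 2 of the 6 tested were higher, both beta-globin genes that share reads. Megakaryocyte markers summed to 227 and 121 CPM in fetal HSC, against 1658, 687 and 679.7 CPM in adult HSC, with 1 of 7 tested lower (Pf4) and Gp6 at 0 in every HSC library. Of the 7, 6 had an unadjusted p below 0.05, DESeq2 called 5 lower, and 5 were lower without the 3 libraries that stood apart. Endothelial markers summed to 374 and 404 CPM in fetal HSC, against 301, 305 and 178 CPM in adult HSC, with Cdh5 and Plvap higher among 6 tested. Hepatocyte markers summed to 7.35 and 58 CPM in fetal HSC, against 10.6, 12.5 and 20.2 CPM in adult HSC, with 0 of 8 called by edgeR, 4 with an unadjusted p below 0.05 and 2 by DESeq2. B cell markers summed to 50.6 and 65.6 CPM in fetal HSC, against 37.4, 39.8 and 81.6 CPM in adult HSC. Of the 5 tested, edgeR called 0 and DESeq2 1. Neutrophil markers summed to 3.11 and 10.5 CPM in fetal HSC, against 0.476, 8.53 and 42.4 CPM in adult HSC. Macrophage markers stood at 10.8 and 14.6 CPM, against 13.5, 7.09 and 29.3 CPM. Stromal markers stood at 4.99 and 7.09 CPM, against 18, 20.4 and 27.3 CPM, with 1 of 3 tested lower (Pdgfrb). Cd3d, Cd3e, Cd3g and Cd8a of T cells and Ms4a1 and Pax5 of B cells were at 0 in every HSC library. Mast cell and basophil markers stood at 134 CPM in adult HSC 3 alone, against 8.21 and 7.16 CPM in the other adult libraries and 3.58 and 2.22 CPM in fetal HSC. Of these 6 markers edgeR called 0, 4 had an unadjusted p below 0.05, and DESeq2 called 4 lower. Without the 3 libraries that stood apart 1 was lower. The part of other cell types in the results was not tested. The calls of Pf4 (adjusted p = 0.1), Cdh5 (0.135) and Plvap (0.155) ended without fetal HSC 1. For Pf4 (0.255), Cdh5 (0.199) and Plvap (0.144), the calls did not hold without fetal HSC 2. The calls of Pf4 (0.0596), Cdh5 (0.0933) and Plvap (0.0766) ended without adult HSC 1. The calls of Cdh5 (0.0782) and Plvap (0.0782) ended without adult HSC 2. For Cdh5 (0.064), the call did not hold without adult HSC 3.

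Further genes are described by 39 lists of genes that share a role. Each list is set beside the shares of all tested genes, 2.07% higher and 2.89% lower, and beside their median log2 difference of 0.0. No set was tested, so a count says how many members passed the test over all genes and nothing about the list as such.

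Cell surface proteins came out mixed. Tetraspanins, which organise other proteins in the membrane, had 4 of 24 tested members higher (Cd53, Tspan2, Tspan6 and Tspan14) and Cd9 lower, with a median of −0.03. Cd53, found across leukocytes, had 47.9 and 51.6 CPM in fetal HSC, against 6.25, 6.9 and 11.5 CPM in adult HSC (log2 difference 2.59 ± 0.24, adjusted p = 0.000214). Tspan2 had 26.7 and 32.8 CPM in fetal HSC, against 3.11, 4.69 and 2.53 CPM in adult HSC (log2 difference 3.12 ± 0.37, adjusted p = 0.000896). Cd9 ran the other way, at 84 and 84.3 CPM in fetal HSC, against 324, 215 and 377 CPM in adult HSC (log2 difference −1.86 ± 0.25, adjusted p = 0.0019). Among 31 C-type lectins and Siglecs, receptors that bind sugars, Clec4e rose and Clec1a, Cd69, Siglecf, Cd302 and Clec4d fell. The list median was −0.75, and it was −0.12 without the 3 libraries that stood apart. Clec4e, a receptor for microbial glycolipids also called Mincle, had 64.5 and 51.6 CPM in fetal HSC, against 3.87, 5.14 and 4.47 CPM in adult HSC (log2 difference 3.69 ± 0.31, adjusted p = 0.000133). Its neighbour Clec4d was at 0.787 and 0.39 CPM in fetal HSC, against 1.68, 1.92 and 2.04 CPM in adult HSC. These paralogs thus differed in direction, but Clec4d was low and its call ended in 9 of the 13 alternatives. For Tspan6 (adjusted p = 0.0561), Tspan14 (0.137), Siglecf (0.267), Cd302 (0.309) and Clec4d (0.0619), the calls did not hold without fetal HSC 1. The calls of Tspan14 (0.267), Clec1a (0.0644), Cd69 (0.242), Siglecf (0.121), Cd302 (0.101) and Clec4d (0.347) ended without fetal HSC 2. The calls of Tspan14 (0.0836), Siglecf (0.0684) and Clec4d (0.0643) ended without adult HSC 1. For Clec1a (0.0544), Cd302 (0.0835) and Clec4d (0.0795), the calls did not hold without adult HSC 2. DESeq2 did not call Clec1a (0.0777). The calls of Tspan14 (0.0639), Siglecf (0.0572), Cd302 (0.0663) and Clec4d (0.0658) ended without adult HSC 3.

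Of 39 tested junction and adhesion genes, 5 rose, among them Jam3, Cd34, Cdh5 and Nectin2, and Alcam and Ncam2 fell (median 0.13). Cd34, a sialomucin that marks progenitors, had 487 and 455 CPM in fetal HSC, against 207, 243 and 311 CPM in adult HSC (log2 difference 0.89 ± 0.18, adjusted p = 0.0153). Jam3, a junction protein of HSC and vessels, averaged 72.4 ± 1.24 CPM for fetal HSC and 25.5 ± 1.55 CPM in adult HSC. Of 21 integrins, Itgam and Itga4, an integrin chain used in homing, rose, while the list median was −0.44. The Ly6 family had 14 tested members, of which Ly6a, which encodes Sca-1, and Ly6e fell, and its median of −1.62 was the lowest of the 39 lists. Ly6e had 242 and 269 CPM in fetal HSC, against 609, 738 and 933 CPM in adult HSC (log2 difference −1.57 ± 0.19, adjusted p = 0.000989). In the SLAM family 0 of 8 members were called by edgeR, 5 had an unadjusted p under 0.05, and DESeq2 called 2. The calls of Jam3 (adjusted p = 0.101), Cd34 (0.134), Cdh5 (0.135), Nectin2 (0.112), Alcam (0.0826), Ncam2 (0.227), Itga4 (0.157) and Ly6a (0.204) ended without fetal HSC 1. The calls of Jam3 (0.121), Cd34 (0.0963), Cdh5 (0.199), Nectin2 (0.276), Alcam (0.0653), Ncam2 (0.26), Itga4 (0.27) and Ly6a (0.201) ended without fetal HSC 2. For Jam3 (0.0528), Cdh5 (0.0933), Nectin2 (0.101), Ncam2 (0.0949) and Itga4 (0.105), the calls did not hold without adult HSC 1. The calls of Cd34 (0.0538), Cdh5 (0.0782), Nectin2 (0.0727), Ncam2 (0.12) and Ly6a (0.0646) ended without adult HSC 2. The calls of Cdh5 (0.064) and Nectin2 (0.0813) ended without adult HSC 3.

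Of 38 tested receptors for lipid mediators and nucleotides, Ptger4, Ptger3, Cysltr2, P2ry14 and S1pr2 fell and Lpar1 rose (median −0.41), and 24 of the 38 had a negative difference. In all 15.8% of the list was called, against 4.95% of all genes. Ptger3 and Ptger4 encode receptors for prostaglandin E2, a lipid signal known to act on HSC. Ptger3 had 18.9 and 12.8 CPM in fetal HSC, against 89.5, 84.7 and 111 CPM in adult HSC (log2 difference −2.58 ± 0.27, adjusted p = 0.000414). Ptger4 had 8.42 and 9.61 CPM in fetal HSC, against 40.5, 48.7 and 57.7 CPM in adult HSC (log2 difference −2.44 ± 0.25, adjusted p = 0.000362). Cysltr2, a receptor for cysteinyl leukotrienes, had 1.34 and 0.61 CPM in fetal HSC, against 12, 14.1 and 10.1 CPM in adult HSC (log2 difference −3.64 ± 0.49, adjusted p = 0.00381). All adult libraries lay well above both fetal libraries for these 3 receptors, and their calls held in each of the 13 alternatives. Rgs1, which damps signals from such receptors, had 1.65 and 1.22 CPM in fetal HSC, against 63.8, 96.6 and 99.7 CPM in adult HSC (log2 difference −5.92 ± 0.44, adjusted p = 6.2e-05). It was the only call among 19 RGS proteins and receptor kinases. For P2ry14 (adjusted p = 0.134), S1pr2 (0.332) and Lpar1 (0.121), the calls did not hold without fetal HSC 1. The calls of P2ry14 (0.0628), S1pr2 (0.263) and Lpar1 (0.243) ended without fetal HSC 2. The call of S1pr2 (0.102) ended without adult HSC 1. The calls of S1pr2 (0.0995) and Lpar1 (0.126) ended without adult HSC 2. For S1pr2 (0.0638), the call did not hold without adult HSC 3.

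In the Wnt list, 3 of 40 members (7.5%) rose and 0 fell: Dkk1, Nkd1, an inhibitor induced by Wnt, and Wnt6, a ligand (median 0.48). Nkd1 had 5.19 and 3.95 CPM in fetal HSC, against 0.254, 0.423 and 0.515 CPM in adult HSC (log2 difference 3.50 ± 0.47, adjusted p = 0.00191). In the TGF-beta and BMP list, Smad6, Fstl1 and Acvr2b rose and Ltbp3 and Smad1 fell among 45 members, 11.1% of them (median 0.12). Smad6, an inhibitor of BMP signalling, had 34.2 and 31.9 CPM in fetal HSC, against 9, 6.41 and 8.21 CPM in adult HSC (log2 difference 2.07 ± 0.27, adjusted p = 0.0014). Smad1, which carries that signal, had 51.8 and 54 CPM in fetal HSC, against 83, 87 and 82.8 CPM in adult HSC. The Notch list had 0 of 30 members called by edgeR and by DESeq2, with 4 with an unadjusted p below 0.05. Of 49 guidance ligands and receptors Robo3 alone was called, lower in fetal HSC, although the list median was 0.99. The calls of Wnt6 (adjusted p = 0.0594), Fstl1 (0.0688), Acvr2b (0.111), Ltbp3 (0.227), Smad1 (0.265) and Robo3 (0.214) ended without fetal HSC 1. The calls of Wnt6 (0.0717), Fstl1 (0.149), Acvr2b (0.348), Ltbp3 (0.112), Smad1 (0.219) and Robo3 (0.27) ended without fetal HSC 2. For Acvr2b (0.0761), Ltbp3 (0.0529), Smad1 (0.0646) and Robo3 (0.0857), the calls did not hold without adult HSC 1. For Acvr2b (0.0694), Ltbp3 (0.0559), Smad1 (0.0751) and Robo3 (0.0745), the calls did not hold without adult HSC 2. The call of Acvr2b (0.0759) ended without adult HSC 3.

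The JAK-STAT list had 1 of 30 members higher and 2 lower (median 0.16). Bcl6, a repressor of that list, had 0 counts in both fetal libraries, against 2.03, 3.19 and 2.16 CPM in adult HSC, which put fetal HSC at least 25.7-fold lower (adjusted p = 0.00222). Sh2b3, an adaptor that restrains thrombopoietin signalling, had 109 and 114 CPM in fetal HSC, against 49.3, 54.2 and 22.4 CPM in adult HSC (log2 difference 1.41 ± 0.34, adjusted p = 0.0402). In the TNF family, Tnfrsf25, a receptor of lymphocytes, rose and the ligands Tnfsf13 and Tnfsf4 fell among 35 members (median −0.12). Tnfsf13, also named April, had 0.669 and 0.829 CPM in fetal HSC, against 21.5, 26.1 and 32.8 CPM in adult HSC (log2 difference −5.15 ± 0.80, adjusted p = 0.00399). Rasal3, a RasGAP of blood cells, had 61.9 and 56.9 CPM in fetal HSC, against 234, 230.3 and 217 CPM in adult HSC (log2 difference −1.94 ± 0.18, adjusted p = 0.000249), a close grouping within each age. The calls of Sh2b3 (adjusted p = 0.192) and Tnfsf13 (0.0698) ended without fetal HSC 1. For Sh2b3 (0.23), Tnfrsf25 (0.0652), Tnfsf13 (0.0732) and Tnfsf4 (0.191), the calls did not hold without fetal HSC 2. The calls of Sh2b3 (0.0705) and Tnfsf4 (0.0702) ended without adult HSC 1. The call of Tnfsf4 (0.0975) ended without adult HSC 2.

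Innate immune sensors split. Tlr12, an endosomal receptor for microbial profilin, had 14.3 and 19.5 CPM in fetal HSC, against 0.824, 0.325 and 1.56 CPM in adult HSC (log2 difference 4.19 ± 0.62, adjusted p = 0.00313). Nlrp1a, an inflammasome sensor, had 6.69 and 11.4 CPM in fetal HSC, against 1.78, 1.69 and 1.69 CPM in adult HSC (log2 difference 2.39 ± 0.33, adjusted p = 0.00199). Casp1, the protease that inflammasomes activate, went the other way, with 9.16 and 12.8 CPM in fetal HSC, against 46.9, 58.9 and 87.2 CPM in adult HSC (log2 difference −2.55 ± 0.33, adjusted p = 0.00151). Ticam2 and Cd180 fell as well, so that 2 of 43 members rose and 3 fell (median −0.49). Nkg7, a granule protein of T and NK cells picked after its values were seen, had 8.22 and 6.53 CPM in fetal HSC, against 65.3, 53.7 and 119 CPM in adult HSC (log2 difference −3.43 ± 0.37, adjusted p = 0.000531), while 4 of the 8 T and NK cell markers, of which it is one, were at 0 in all HSC libraries. Those markers summed to 32.5 and 29.6 CPM in fetal HSC, against 83, 72.8 and 148 CPM in adult HSC. The calls of Ticam2 (adjusted p = 0.0798) and Cd180 (0.0642) ended without fetal HSC 1. For Ticam2 (0.182) and Cd180 (0.283), the calls did not hold without fetal HSC 2. The call of Cd180 (0.0724) ended without adult HSC 1. The call of Cd180 (0.0651) ended without adult HSC 2.

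In the list of Sox, Gata, Ets and Runx factors 0 of 36 members were called by edgeR, with 12 with an unadjusted p below 0.05 and 6 by DESeq2. Of 34 homeobox factors outside the Hox clusters and related regulators, Satb1 and Pou2f2 rose and Cux1, Lmo2 and Hlx fell (median 0.19), 14.7% of the list. Satb1, an organiser of chromatin in lymphoid cells, had 24 and 30.5 CPM in fetal HSC, against 4.88, 6.12 and 2.29 CPM in adult HSC (log2 difference 2.64 ± 0.33, adjusted p = 0.00115). Cux1, a repressor, had 65.9 and 74.2 CPM in fetal HSC, against 155, 150.3 and 149 CPM in adult HSC (log2 difference −1.11 ± 0.14, adjusted p = 0.00127). Of 34 nuclear receptors, Nr5a1 and Rara, a retinoic acid receptor, rose and 2 fell, among them Esr1, the estrogen receptor alpha (median −0.37), so that 11.8% of them were called. Esr1 averaged 0.458 ± 0.131 CPM in fetal HSC and 16.5 ± 5.44 CPM in adult HSC. Gfi1, a zinc finger repressor needed by HSC, was on no list and was picked after its values were seen. It had 100.0 and 128 CPM in fetal HSC, against 7.23, 10.2 and 10.8 CPM in adult HSC (log2 difference 3.60 ± 0.29, adjusted p = 0.000113), and its call held in each alternative. For Pou2f2 (adjusted p = 0.0693), Lmo2 (0.262), Hlx (0.261), Nr5a1 (0.275), Rara (0.138) and Esr1 (0.072), the calls did not hold without fetal HSC 1. The calls of Pou2f2 (0.123), Lmo2 (0.174), Hlx (0.243), Nr5a1 (0.271), Rara (0.295) and Esr1 (0.114) ended without fetal HSC 2. The calls of Hlx (0.0849), Nr5a1 (0.0684) and Rara (0.0851) ended without adult HSC 1. The calls of Lmo2 (0.0601), Hlx (0.0634), Nr5a1 (0.0699) and Rara (0.0733) ended without adult HSC 2. For Rara (0.082), the call did not hold without adult HSC 3.

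Of 63 tested enzymes that handle drugs and aldehydes, Aldh1a1, Cyp2j6, Sult1a1, Aldh2 and Gstt1 fell and Cyp27a1 rose (median −0.50), and 46 of the 63 had a negative difference. Cyp2j6, a cytochrome that makes fatty acid epoxides, had 13.4 and 13 CPM in fetal HSC, against 53, 61.8 and 77.4 CPM in adult HSC (log2 difference −2.28 ± 0.24, adjusted p = 0.000457). Aldh2, the mitochondrial enzyme that clears acetaldehyde, had 297 and 357 CPM in fetal HSC, against 575, 611 and 485 CPM in adult HSC (log2 difference −0.77 ± 0.14, adjusted p = 0.0113). The glutathione transferase Gstt1 averaged 1.43 ± 0.199 CPM for fetal HSC and 26 ± 3.79 CPM in adult HSC. Among 32 ABC transporters 3 fell and 0 rose: Abcb1a and Abcb1b, the P-glycoprotein pumps, and Abcg2, the pump behind the side population of dye-excluding stem cells. Abcb1b had 2.28 and 2.15 CPM in fetal HSC, against 48, 52.5 and 16.1 CPM in adult HSC (log2 difference −4.13 ± 0.70, adjusted p = 0.00653). Whether reads are split between the related genes Abcb1a and Abcb1b was not tested. Abcg2 had 99.1 and 93.6 CPM in fetal HSC, against 161, 175 and 299 CPM in adult HSC (log2 difference −1.14 ± 0.29, adjusted p = 0.049). The calls of Aldh2 (adjusted p = 0.172), Gstt1 (0.132), Cyp27a1 (0.107), Abcb1a (0.147), Abcb1b (0.0847) and Abcg2 (0.274) ended without fetal HSC 1. The calls of Aldh2 (0.0582), Gstt1 (0.169), Cyp27a1 (0.167), Abcb1a (0.0939), Abcb1b (0.105) and Abcg2 (0.324) ended without fetal HSC 2. For Cyp27a1 (0.0702), the call did not hold without adult HSC 1. For Cyp27a1 (0.0673) and Abcg2 (0.0585), the calls did not hold without adult HSC 2. The calls of Cyp27a1 (0.0608) and Abcg2 (0.064) ended without adult HSC 3. The call of Abcg2 also ended with RLE scaling (0.0563), with only the HSC libraries in the fit (0.113) and with a replicate block (0.102).

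Other metabolic lists had 1 to 4 calls each. Gclm, which makes glutathione, had 54.8 and 53.3 CPM in fetal HSC, against 141, 149 and 205 CPM in adult HSC (log2 difference −1.61 ± 0.19, adjusted p = 0.000957). Nfe2l2, the factor NRF2 that drives such genes, also fell and Msrb3, which repairs oxidised methionine, rose, so that 3 of 40 antioxidant genes were called (median −0.24). Fabp5, a fatty acid carrier, had 139.9 and 129 CPM in fetal HSC, against 58.6, 60.1 and 43.4 CPM in adult HSC (log2 difference 1.32 ± 0.20, adjusted p = 0.00322), and Acadl, an enzyme of fatty acid oxidation, fell. Of 47 genes of fatty acid use 37 had a negative difference, 2 were called, and the median was −0.29. In the list of serine, folate and polyamine metabolism Mthfd1l, a mitochondrial folate enzyme, was the only call of 40, higher in fetal HSC (log2 difference 0.81 ± 0.17, adjusted p = 0.0196). Amino acid transporters had 1 of 33 higher (Slc38a4) and 1 lower (Slc7a7). Fech, which closes the heme ring, was lower and the only call of 34 iron and heme genes, although globin RNA was higher. Of 67 lysosome and autophagy genes, Man2b1 rose and Atg7, Ctsd and Psap fell. The calls of Nfe2l2 (adjusted p = 0.314), Acadl (0.257), Mthfd1l (0.177), Slc7a7 (0.225), Fech (0.0931), Man2b1 (0.105), Ctsd (0.218) and Psap (0.38) ended without fetal HSC 1. For Nfe2l2 (0.215), Msrb3 (0.0568), Acadl (0.21), Mthfd1l (0.143), Slc38a4 (0.0907), Slc7a7 (0.27), Fech (0.0939), Man2b1 (0.153), Atg7 (0.0794), Ctsd (0.118) and Psap (0.0678), the calls did not hold without fetal HSC 2. The calls of Acadl (0.0531) and Slc7a7 (0.0602) ended without adult HSC 1. The calls of Acadl (0.0731), Slc7a7 (0.0751), Man2b1 (0.0547) and Psap (0.082) ended without adult HSC 2. The calls of Nfe2l2 (0.056), Slc7a7 (0.0642) and Psap (0.0701) ended without adult HSC 3.

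The cytoskeleton held the most calls of any list, 12 of 71 genes (16.9%, against 4.95% of all genes). Its members are tubulins, septins, myosins, tropomyosins and related genes such as Vim. The 7 that rose included Tpm4, Myo1f, Vim, Tpm2, Tubb5 and Sept10, and Myl10, Myl4, Myl12b, Tuba8 and Myl6 fell. All 4 light chain genes that were called were lower. Tpm4, a tropomyosin that lines actin filaments, had 256 and 229 CPM in fetal HSC, against 44.4, 24.9 and 45.3 CPM in adult HSC (log2 difference 2.66 ± 0.24, adjusted p = 0.000191). Myo1f, a myosin of leukocytes, had 202 and 227 CPM in fetal HSC, against 81.6, 92.4 and 59.2 CPM in adult HSC (log2 difference 1.46 ± 0.21, adjusted p = 0.00237). Myl12b, a regulatory light chain of nonmuscle myosin, had 244 and 258 CPM in fetal HSC, against 400.0, 476 and 604 CPM in adult HSC (log2 difference −0.98 ± 0.18, adjusted p = 0.00934). Myl10, another light chain, was uneven in adult HSC, at 20.5, 38.1 and 137 CPM, against 0.354 and 0.317 CPM in fetal HSC. The calls of Tpm4 and Myo1f were among those that held in each alternative. For Vim (adjusted p = 0.0612), Tpm2 (0.23), Tubb5 (0.337), Sept10 (0.332), Myl10 (0.0504), Myl12b (0.119) and Myl6 (0.265), the calls did not hold without fetal HSC 1. The calls of Vim (0.0829), Tpm2 (0.216), Tubb5 (0.15), Sept10 (0.157), Myl10 (0.0652), Myl4 (0.0559), Myl12b (0.0977), Tuba8 (0.206) and Myl6 (0.262) ended without fetal HSC 2. The calls of Tpm2 (0.0937), Tubb5 (0.0842), Sept10 (0.127), Tuba8 (0.0849) and Myl6 (0.0502) ended without adult HSC 1. For Tpm2 (0.107) and Tubb5 (0.107), the calls did not hold without adult HSC 2. The calls of Sept10 (0.0953), Tuba8 (0.0532) and Myl6 (0.0546) ended without adult HSC 3.

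Matrix genes had 4 of 51 members higher (Postn, Fbln1, Crispld2 and Col11a2) and Matn4 lower, with a median of 0.66. Fbln1, a secreted glycoprotein of basement membranes, had 8.53 and 10 CPM in fetal HSC, against 1.14, 0.846 and 1.5 CPM in adult HSC (log2 difference 2.98 ± 0.37, adjusted p = 0.00103). Splicing and RNA-binding genes had 1 of 66 called, the splicing factor Srsf6, higher at 467 and 515 CPM in fetal HSC, against 282, 318 and 283 CPM in adult HSC (log2 difference 0.74 ± 0.13, adjusted p = 0.00848), while 50 of the 66 had a positive difference. DNA repair was the largest list with no call: 0 of 76 genes by edgeR, with 5 with an unadjusted p below 0.05 and 1 by DESeq2, and a median of 0.23. Gimap GTPases had 0 of 8 called by edgeR and by DESeq2, with 2 with an unadjusted p below 0.05. Of 40 p53 targets, Pmaip1, the death inducer Noxa, rose and Gadd45b fell (median 0.01). Pmaip1 had 1.77 and 2.05 CPM in fetal HSC, against 0.19, 0.0976 and 0.349 CPM in adult HSC. The calls of Col11a2 (adjusted p = 0.0561), Matn4 (0.0561), Srsf6 (0.0523) and Gadd45b (0.0619) ended without fetal HSC 1. The calls of Col11a2 (0.0667), Matn4 (0.0762), Srsf6 (0.126) and Pmaip1 (0.0706) ended without fetal HSC 2. The call of Matn4 (0.0542) ended without adult HSC 2.

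**Figure D3:**
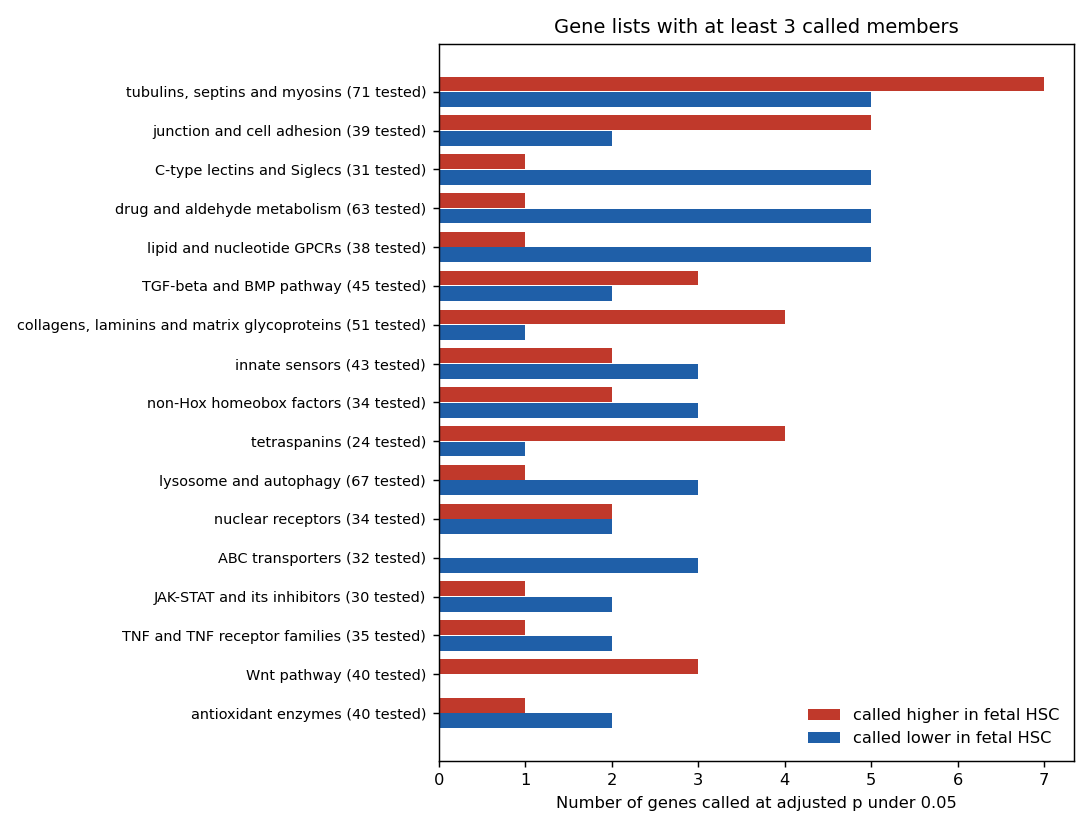
Number of genes called higher (red) and lower (blue) in fetal HSC in gene lists drawn from those with at least 3 called members, with the number of tested members in brackets. Of the lists drawn, the cytoskeletal one has the most calls, 7 higher and 5 lower, and the lists of lipid and nucleotide receptors and of drug and aldehyde enzymes have 1 higher and 5 lower each.

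Called genes that lie side by side among the tested genes formed 9 runs of 3 or more that moved the same way. The longest were 3 runs of 12, 11 and 9 lower genes in the MHC on chromosome 17, which hold genes of class I and class II presentation. Of the tested genes of chromosome 17, 5.76% were lower. A run of 4 higher genes was the beta-globin cluster on chromosome 7 (Hbb-b2, Hbb-bt, Hbb-bs and Hbb-b1, copies that share reads). On chromosome 5, Abcb1a, Gm5106 and Abcb1b fell side by side between 8567091 and 8866314, and Sh2b2, Cux1 and Myl10 fell between 136218149 and 136701094. On chromosome 1, Cyp27a1, Prkag3 and Wnt6 rose between 74713535 and 74785319. On chromosome 4, Cyp2j6, Cyp2j9 and Nfia fell, and on chromosome 7, H19, its microRNA gene Mir675 and Igf2 rose. Some entries of a run cover the same stretch: Hbb-b2 and Hbb-bt have the same coordinates, and H2-L lies within H2-D1 in the run of 12. The lengths of these runs therefore count a locus more than once. Whether overlapping transcripts or shared reads made up more of the runs was not tested. The calls of Abcb1a (adjusted p = 0.147), Abcb1b (0.0847), Sh2b2 (0.0592), Myl10 (0.0504), Cyp27a1 (0.107), Prkag3 (0.0958), Wnt6 (0.0594), Cyp2j9 (0.277) and Nfia (0.12) ended without fetal HSC 1. For Abcb1a (0.0939), Abcb1b (0.105), Sh2b2 (0.21), Myl10 (0.0652), Cyp27a1 (0.167), Prkag3 (0.199), Wnt6 (0.0717), Cyp2j9 (0.223) and Nfia (0.206), the calls did not hold without fetal HSC 2. For Cyp27a1 (0.0702) and Prkag3 (0.0547), the calls did not hold without adult HSC 1. The calls of Cyp27a1 (0.0673), Prkag3 (0.0562), Cyp2j9 (0.0725) and Nfia (0.0539) ended without adult HSC 2. The calls of Cyp27a1 (0.0608) and Cyp2j9 (0.0634) ended without adult HSC 3.

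LMPP of the same ages, which are other cells in other libraries, gave the same direction for most called genes. Of the 304 genes higher in fetal HSC, 144 (47.4%) were also called higher in fetal LMPP, where 7.08% of all tested genes were, and 15 were called lower there. Of the 425 genes lower in fetal HSC, 274 (64.5%) were also called lower in fetal LMPP, against 8.29% of all tested genes, and 6 were called higher. The sign was the same in LMPP for 249 of the 304 and 386 of the 425, and for 65.9% of all tested genes. Aldh1a1 was one of the exceptions by level: adult LMPP had 0.884 CPM or less and fetal LMPP had 0, so its high level was seen in adult HSC and not in adult LMPP.

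The test of the difference between the 2 cell types called 137 genes (0.931%), 80 with a more positive fetal-adult difference in HSC and 57 with a more negative one. These counts depended on the libraries and the fit. They were 24 and 8 without fetal HSC 2, 31 and 14 without fetal HSC 1, and 45 and 41 with a replicate block, whereas DESeq2 gave 363 and 304 and the fit without the 3 libraries that stood apart gave 459 and 330. Leaving out any 1 of adult HSC 1, adult HSC 2, adult LMPP 1, adult LMPP 2, fetal LMPP 2 and fetal LMPP 3 gave 33 to 53 and 31 to 57. Of the 80 and 57, 15 and 6 were called in opposite directions in HSC and LMPP, and 26 and 14 were called in HSC only. Gfi1 had 45, 27.2 and 26.7 CPM in fetal LMPP, against 32.6, 41.6 and 40.2 CPM in adult LMPP, so the ages overlapped there, and the difference between the cell types was 3.81 ± 0.38 (log2, adjusted p = 0.00202). Clec4e likewise had 37.8, 18.4 and 22.1 CPM in fetal LMPP, against 29.8, 35.3 and 30.1 CPM in adult LMPP (difference 3.97 ± 0.40, adjusted p = 0.00202). Cd53 was higher in fetal HSC and lower in fetal LMPP, where it had 206, 188 and 173 CPM, against 376, 380.1 and 463 CPM in adult LMPP (difference 3.69 ± 0.32, adjusted p = 0.0011). Nos3 stood at 0.355 CPM or less in fetal and 0.448 CPM or less in adult LMPP, so its RNA was near the floor outside fetal HSC (difference 5.86 ± 0.95, adjusted p = 0.0188). Slc16a11, a monocarboxylate transporter, had 3.22 and 3.07 CPM in fetal HSC, against 0.571, 1.11 and 0.349 CPM in adult HSC, but 0.231, 0.222 and 0 CPM in fetal LMPP, against 63.4, 62.8 and 80.5 CPM in adult LMPP (difference 10.91 ± 0.85, adjusted p = 0.000763). In edgeR's test of fetal against adult HSC alone, Slc16a11 was called higher in fetal HSC (log2 difference 2.25 ± 0.55, adjusted p = 0.0416). This HSC call did not hold without fetal HSC 1 (log2 difference 2.22) or without fetal HSC 2 (2.29). It also ended without adult HSC 1 (adjusted p = 0.121) and without adult HSC 3 (0.0661). How its difference between the cell types moved in these fits was not tested.

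Genes known from megakaryocytes and platelets were among those with a more negative difference in HSC. Cavin2, a coat protein of caveolae that platelets also carry, had 28.2 and 13.5 CPM in fetal HSC, against 229, 126 and 132 CPM in adult HSC, but 4.85, 6.02 and 11.2 CPM in fetal LMPP, against 0 in each adult LMPP library (difference −13.95 ± 1.17, fitted against 0, adjusted p = 0.00202). Pf4 had 26.3 and 9.26 CPM in fetal HSC, against 536, 155 and 161 CPM in adult HSC, and 19.5, 8.13 and 3.06 CPM in fetal LMPP, against 0.91, 1.34 and 0.851 CPM in adult LMPP (difference −7.30 ± 1.19, adjusted p = 0.019). In both genes fetal HSC lay below adult HSC and fetal LMPP above adult LMPP, and the groups did not overlap in either cell type. The megakaryocyte marker list, of which Pf4 is a member, summed to 227 and 121 CPM in fetal HSC, against 679.7 to 1658 CPM in adult HSC, as given above, and its part was not tested. Both genes were also called lower in fetal than in adult HSC by edgeR, and only these HSC calls were followed when a library was left out. That of Pf4 did not hold without fetal HSC 1 (log2 difference −4.94). Without fetal HSC 2 the HSC calls of Cavin2 (−2.52) and Pf4 (−3.43) ended. That of Pf4 also ended without adult HSC 1 (adjusted p = 0.0596).

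**Figure D4:**
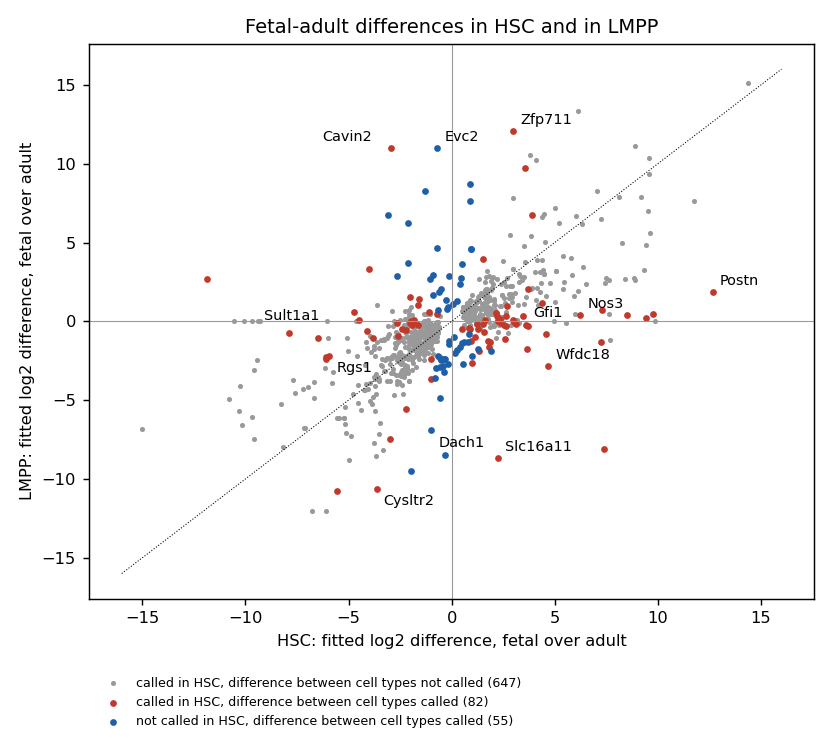
Fitted log2 difference of fetal over adult cells in HSC (horizontal) and in LMPP (vertical), with the line of equal differences dotted. Grey points are genes called in HSC whose differences were not called apart, red points are called in HSC and differ between the cell types (82 genes), and blue points differ between the cell types without a call in HSC (55 genes). Many of the largest values belong to genes with 0 counts in a group and depend on the prior count of the fit. H2-Aa in HSC (−8.30) and Slc16a11 in LMPP (−8.66) are large although each group has counts.

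Open chromatin was described by 1 list of regions per age, made by the authors from 2 ATAC-seq replicates each, so regions were counted and not tested. The fetal HSC list held 48286 distinct regions and the adult HSC list 53068. Of the fetal regions 74.8% overlapped an adult one, and of the adult regions 68.7% overlapped a fetal one. Regions of 1 list only were weaker by the authors' signal value, with a median of 5.47 against 8.59 for shared regions in the fetal list, and 7.00 against 11.6 in the adult list. Promoters, taken as 1 kb either side of the start site, were open in both lists for 79.4% of tested genes, in the fetal list only for 2.32% and in the adult list only for 3.94%. Among the 304 higher genes, 28 (9.21%) had a promoter region in the fetal list only and 17 (5.59%) in the adult list only. Among the 425 lower genes, 9 (2.12%) had one in the fetal list only and 57 (13.4%) in the adult list only. For genes that differed at least 4-fold the matching shares were 14.4% of the higher (fetal list only) and 18.6% of the lower genes (adult list only). Within 50 kb of the start site, lower genes had on average 0.779 fetal-only and 1.94 adult-only regions, higher genes 0.99 and 1.36, and all tested genes 0.699 and 1.19. RNA and accessibility thus went the same way for a minority of called genes, and most promoters were listed as open at both ages.

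**Figure D5:**
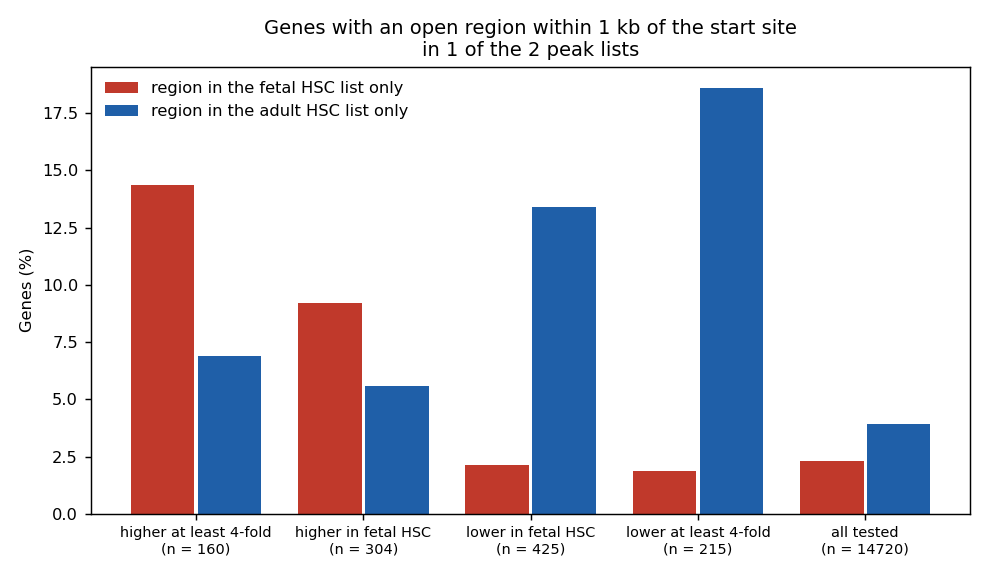
Share of genes with an open region within 1 kb of the start site in the fetal HSC list only (red) or in the adult HSC list only (blue), for genes higher and lower in fetal HSC and for all 14720 tested genes. The red bars are tallest for higher genes (14.4% at 4-fold or more) and the blue bars for lower genes (18.6%), and with 1 list per age there are no error bars.

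Igf2bp1 had 2 promoter regions in the fetal list and 0 in the adult list, and Tpm4, Tlr12, Gfi1 and Kmo had 1 and 0. By signal, the Igf2bp1 regions lay above 0% and 11% of their list. Those of Tpm4, Tlr12 and Kmo lay above 20%, 55% and 57%. The Gfi1 region lay upstream of the start site and was weak, above 5% of the regions of its list. Sult1a1, Galnt6, Myl10, Cysltr2, Tnfsf13 and Tgtp2 had 0 promoter regions in the fetal list and 1 in the adult list. The Cysltr2 region was strong, above 89% of its list. Those of Galnt6, Tnfsf13, Sult1a1, Myl10 and Tgtp2 lay above 16%, 23%, 25%, 44% and 52%. Dkk1 went against its RNA, with 0 regions in the fetal and 1 in the adult list, and Igf2 did the same, while Postn and Nos3 had 1 region in each list. The adult regions of Dkk1 and Igf2 were weak, above 12% and 9% of their list.

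Promoter sequences are shown for 5 of these genes because a region of 1 list covers part or all of the printed bases (Tpm4 in the fetal list; Cysltr2, Sult1a1 and Tgtp2 in the adult list) or, for B2m, because the region is in both lists while the RNA differs. They are RefSeq sequences (GRCm38.p6, which has the coordinates of mm10), written in the direction of transcription from 250 bases before to 50 after the start site. Capitals mark matches, on either strand, to the 8 short motifs searched. These were the interferon response element, written as the tetramer GAAA repeated after a gap of 2 bases, the ETS core GGAAGT, the binding letters of Gata factors written as AGATAA, and the letters of Runx factors written as TGTGGT. The others were TGANTCA for AP-1 factors, the CCAAT box, the GC box written as GGGCGG and the TATA box written as TATAAA. No motif contains another, and neighbouring matches may overlap, as the TATA matches of Tgtp2 do. The first, Tpm4, lies on the plus strand (chr8:72135038-72135337), Cysltr2 on the minus strand (chr14:73049065-73049364), Sult1a1 on the minus strand (chr7:126676369-126676668), Tgtp2 on the minus strand (chr11:49064163-49064462) and B2m on the plus strand (chr2:122147437-122147736).
Tpm4: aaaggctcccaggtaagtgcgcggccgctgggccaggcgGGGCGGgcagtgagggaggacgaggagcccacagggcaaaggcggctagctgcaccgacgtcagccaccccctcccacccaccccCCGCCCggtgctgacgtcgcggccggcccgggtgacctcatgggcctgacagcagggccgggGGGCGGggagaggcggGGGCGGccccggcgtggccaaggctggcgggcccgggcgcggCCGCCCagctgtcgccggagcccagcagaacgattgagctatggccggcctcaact
Cysltr2: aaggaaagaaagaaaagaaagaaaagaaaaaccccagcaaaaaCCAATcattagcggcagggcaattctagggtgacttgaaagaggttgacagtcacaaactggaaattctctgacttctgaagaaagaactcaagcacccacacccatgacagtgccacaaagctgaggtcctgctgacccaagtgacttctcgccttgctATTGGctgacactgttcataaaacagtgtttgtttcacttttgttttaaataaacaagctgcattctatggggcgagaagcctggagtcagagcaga
Sult1a1: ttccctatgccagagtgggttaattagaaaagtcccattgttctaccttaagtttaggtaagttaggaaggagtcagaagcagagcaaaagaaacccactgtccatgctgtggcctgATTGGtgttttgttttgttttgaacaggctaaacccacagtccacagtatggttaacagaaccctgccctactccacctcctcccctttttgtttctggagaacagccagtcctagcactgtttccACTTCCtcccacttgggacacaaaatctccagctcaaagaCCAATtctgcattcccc
Tgtp2: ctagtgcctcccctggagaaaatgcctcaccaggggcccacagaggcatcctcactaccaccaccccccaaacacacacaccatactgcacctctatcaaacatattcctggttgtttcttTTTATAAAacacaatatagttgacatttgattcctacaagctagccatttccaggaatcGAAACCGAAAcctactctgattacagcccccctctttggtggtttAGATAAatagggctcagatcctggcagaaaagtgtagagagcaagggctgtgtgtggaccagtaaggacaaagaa
B2m: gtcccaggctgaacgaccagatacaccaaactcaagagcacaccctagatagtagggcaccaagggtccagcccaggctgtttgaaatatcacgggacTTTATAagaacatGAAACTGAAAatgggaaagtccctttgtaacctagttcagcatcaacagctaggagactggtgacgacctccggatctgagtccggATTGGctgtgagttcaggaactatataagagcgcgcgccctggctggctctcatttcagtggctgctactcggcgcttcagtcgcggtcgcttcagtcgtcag
The Tpm4 promoter holds 5 GC boxes and none of the other motifs. Cysltr2 holds 2 CCAAT matches, and Sult1a1 holds 2 CCAAT matches and an ETS match 7 bases before the start site. Tgtp2 and B2m each hold an interferon response match, GAAACCGAAA at position −70 and GAAACTGAAA at position −139 from the start site.

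Of the tested genes, 11170 had a RefSeq promoter at the start site of the table, 209 of them higher and 317 lower in fetal HSC. The interferon response motif was in 5 of the 209 promoters of higher genes (2.39%), in 23 of the 317 of lower genes (7.26%) and in 3.17% of all 11170. The AP-1 motif was in 3.35% of the higher, 8.83% of the lower and 4.92% of all promoters, and the GATA motif in 7.18%, 10.1% and 6.45%. GC boxes were in 64.1% of the higher, 52.7% of the lower and 64.0% of all promoters. RUNX, ETS, CCAAT and TATA matches were in 15.8%, 24.9%, 33.5% and 8.61% of the higher, 13.9%, 23.7%, 38.2% and 11.04% of the lower, and 12.9%, 29.0%, 38.7% and 7.20% of all promoters. These shares describe letters in a window and are not tests, and a match is not shown to be a bound site. Genes lower in fetal HSC with the interferon motif included the GTPases Tgtp1, Tgtp2, Igtp, Gbp2 and Gbp3, the MHC genes H2-T22 and H2-T23, B2m, Ifitm3, Dpp4 and the estrogen receptor gene Esr1. Tgtp2, a GTPase that attacks the vacuoles of intracellular parasites, had 132 and 127 CPM in fetal HSC, against 900.4, 1202 and 2705 CPM in adult HSC (log2 difference −3.63 ± 0.57, adjusted p = 0.00462). It shares reads with its copy Tgtp1. Igtp, a related GTPase, had 49.8 and 52.4 CPM in fetal HSC, against 125, 151 and 252 CPM in adult HSC. For Tgtp1 (adjusted p = 0.0561), Tgtp2 (0.0648), Igtp (0.0755), Gbp2 (0.0783) and Esr1 (0.072), the calls did not hold without fetal HSC 1. The calls of Tgtp1 (0.067), Tgtp2 (0.0794), Igtp (0.0772), Gbp2 (0.121) and Esr1 (0.114) ended without fetal HSC 2.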

How the data were processed

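RNA of sorted HSC and LMPP was amplified with SMART-Seq v4 and made into libraries with Nextera XT, per the labels' protocols, which mark neither strand nor molecules. The authors deposited a table of expected counts per gene over exons (25124 genes, 22.5% of values not whole), rounded here to whole numbers. The submitters' processing notes name STAR, RSEM, HOMER, Bowtie2 2.3.5, SAMtools 1.9, Picard, Trim Galore, MACS2 and DESeq2 without their roles. The deposited peak lists, 1 per group, give a signal value per region, a fold enrichment ratio set by the authors' peak caller and used only to describe regions, and a region's summits were merged.

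All 11 libraries entered edgeR 4.0.16 (R 4.3.3) with filterByExpr, TMM scaling, a mean per group and quasi-likelihood tests with Benjamini-Hochberg adjustment over 14720 genes. DESeq2 1.42.0 was an alternative. Scripts were tested on simulated data. Floors of 3 counts per library stood at 0.0731 to 0.118 CPM in fetal HSC and 0.0498 to 0.0976 CPM in adult HSC and cover counting error only. Named genes were the 12 largest rises and falls at 5 CPM or more, the 8 most abundant calls each way, the 8 largest differences between cell types each way, up to 3 called members per list, gate genes, and others said to be chosen after their values were seen. Members and lists were chosen with earlier results of these data known. A few genes and lists that the rule names are not reported here.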

Additional observations from a re-analysis of the deposited data

Results flagged for a closer look

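The fetal-adult difference in HSC differed from that in LMPP, by edgeR's interaction test, for the genes below. Values are log2 differences in HSC minus those in LMPP, and values of genes with 0 counts in a group depend on the prior count of the fit. How these single values move when a library is left out was not tested, and the counts of such genes under each alternative are given with the processing.

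Differences more positive in HSC were 10.91 for Slc16a11, 10.84 for Postn, 9.30 for Kmo, 8.51 for Cd6, 8.11 for Icos, 7.52 for Wfdc18, 6.97 for Cysltr2, 5.95 for Dach1, 5.86 for Nos3, 5.44 for Wfdc17 and 5.38 for Ddx4. Among genes of the cell surface they were 3.97 for Clec4e, 3.69 for Cd53, 3.31 for Tspan2, 3.11 for Itgam, 2.11 for Flt3 and 1.35 for Cd34. They were 3.81 for Gfi1, 2.96 for Satb1, 2.48 for Nlrp1a, 1.72 for Tpm4, 1.29 for Vim and 0.99 for H2afy.

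Differences more negative in HSC were −13.95 for Cavin2, −11.69 for Evc2, −9.79 for Pls1, −9.57 for Treml1, −9.08 for Zfp711, −8.37 for Ppbp, −7.82 for Klhl13, −7.30 for Pf4 and −7.13 for Sult1a1. Smaller ones were −4.59 for Myl4, −3.72 for Rgs1, −2.67 for Sh2b2, −2.44 for Jam3, −1.87 for Cd9, −1.73 for Rasal3, −1.65 for Ptger3 and −1.39 for Myc.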

How the results depend on the processing

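DESeq2 called 655 genes higher and 889 lower in fetal HSC, and 363 and 304 genes with a more positive or more negative difference in HSC than in LMPP. It called 303 genes higher and 551 lower in both cell types. Without the 3 libraries that stood apart these counts were 1096, 1241, 459, 330, 592 and 750. With only the HSC libraries in the fit 196 genes were higher, and with adult HSC 3 also left out, an alternative chosen after seeing the data, 1283 were higher and 1647 lower. Leaving out 1 library at a time gave 104 to 327 higher and 109 to 384 lower genes, 24 to 104 and 8 to 66 genes differing between cell types, and 62 to 191 and 94 to 305 genes called in both. The causes were not tested. Taking only the stronger regions of each list left 18529 fetal and 18535 adult regions shared. Same-numbered libraries deviated together at r = 0.0602 and 0.0974 between fetal and adult HSC, at −0.0159 and −0.0612 between fetal HSC and LMPP, and at 0.153, 0.306 and 0.472 between adult HSC and LMPP. Adult HSC 1 with adult LMPP 2 gave 0.216, and adult HSC 2 with adult LMPP 1 gave 0.128, although their numbers differ. Library 3 of either adult cell type gave −0.372 to −0.194 with libraries 1 and 2 of the other. The numbers are therefore not shown to pair the samples. A replicate block left 239 higher, 316 lower, 45 more positive and 41 more negative genes.

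Of 163 named genes called, 58 were called in all 13 alternatives, 105 lost the call in at least 1 (102 of them without fetal HSC 2, 89 without fetal HSC 1, 58 with only the HSC libraries and 39 under the replicate block), and 0 reversed. Scaling by RLE factors ended 3 of the named calls, and dropping the filter on low counts ended 6. Lost calls are named gene by gene mainly for fits without 1 library. Medians of lists moved in 37 of 507 values. Without the 3 libraries that stood apart, the median of drug and aldehyde enzymes was −0.20. Medians near 0 changed sign in some lists, to −0.14 for homeobox factors, −0.19 for TGF-beta and BMP and −0.11 for JAK-STAT. At 2 fetal libraries, a gene that did not pass is not shown to be equal between the ages.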
